A study of Homo sapiens with 8 samples.

Results

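The 10 genes described here encode the secreted TGF-beta ligands (TGFB1, TGFB2, TGFB3), the activin beta chains (INHBA, INHBB), the latent TGF-beta binding proteins (LTBP1, LTBP2, LTBP3, LTBP4) and TGFBI, a secreted adhesion protein named for its induction by TGF-beta. They were taken by symbol from the 60564 genes of the count table, and each matched 1 row. Expression was measured by polyadenylated RNA sequencing in AB8/13, a conditionally immortalised line of human podocytes, the epithelial cells of the glomerular filter. In the ATOH8 knockdown group, 4 libraries came from cells transfected with an shRNA against ATOH8, a basic helix-loop-helix transcription factor, and in the control group 4 libraries came from cells transfected with a non-targeting shRNA. All cells grew at 33 °C and were kept at 37 °C for 5 days to differentiate, and both groups are a single cell line. The labels give neither the number nor the sequence of the shRNAs, and a second shRNA or a rescue is not named in them.

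TGF-beta is made as a precursor whose propeptide stays wrapped around the mature dimer after cleavage and keeps it latent. In the secretory pathway the propeptide is joined by disulphide bonds to an LTBP, which anchors the complex in fibrillin and fibronectin matrix until integrins, proteases or thrombospondin release the ligand. LTBP1 and LTBP3 bind all TGF-beta isoforms, LTBP4 binds TGF-beta1 weakly, and LTBP2 does not bind latent TGF-beta but attaches to fibrillin. Activin A is a dimer of 2 INHBA chains and signals through activin receptors to the same SMAD2 and SMAD3. In the glomerulus, TGF-beta is known as a driver of matrix deposition and podocyte injury.

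Total counts ran from 23229160 to 25277868 in the ATOH8 knockdown libraries and from 21108695 to 27109043 in the control libraries. ATOH8 itself had 51, 71, 61 and 53 counts in ATOH8 knockdown libraries, against 175, 160, 122 and 128 in control libraries, which left 41.7% of the control level in CPM (counts scaled to library size). The groups did not overlap (two-sided exact permutation test over 70 assignments, p = 0.0286, which is the lowest p this design can reach). Of the listed podocyte markers, NPHS1 (nephrin of the slit diaphragm) and PTPRO averaged under 1 CPM in both groups. The 10 mesangial and pericyte markers summed to 189 to 207 CPM in ATOH8 knockdown and 97.1 to 102 CPM in control libraries. In the edgeR test described below, 5 of the 6 with enough counts were higher (83.3%, against 25.2% of all genes tested). RGS5 was the 1 that was lower (16.7%, against 25.9%), and PDGFRA, DES, ITGA8 and GATA3 averaged under 1 CPM. CSPG4 stood at 83.4 CPM in ATOH8 knockdown and 22.8 CPM in control, and THY1 at 19.1 CPM in ATOH8 knockdown and 1.69 CPM in control. Summed endothelial markers stood at 53.5 to 54.9 CPM in ATOH8 knockdown and 36.0 to 39.2 CPM in control, with 5 of 8, PECAM1 and CDH5 among them, under 1 CPM. Summed leukocyte markers stood at 103 to 113 CPM in ATOH8 knockdown and 76.5 to 86.4 CPM in control, nearly all from CD68, with PTPRC under 1 CPM. The proximal tubule markers summed to 2.50 to 2.83 CPM in ATOH8 knockdown and 4.50 to 7.17 CPM in control. That difference came from AQP1 (1.14 CPM in ATOH8 knockdown and 5.19 CPM in control). CUBN went the other way (1.07 CPM in ATOH8 knockdown and 0.564 CPM in control). The podocyte markers summed to 236 to 271 CPM in ATOH8 knockdown and 281 to 293 CPM in control. Most of the podocyte sum came from CD2AP (189 CPM in ATOH8 knockdown and 227 CPM in control). Of the 6 podocyte markers tested, 2 were higher (SYNPO, 1.45-fold, and NES, 2.02-fold), 3 were lower and 1 did not pass. These shares were 33.3% higher, against 25.2% of all genes tested, and 50% lower, against 25.9%. The marker lists were chosen with earlier results of these data known, so none of their shares is a test. In bulk RNA fewer cells of a type and less RNA per cell cannot be told apart, and the part of these markers in the results on the secreted genes was not tested.

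In ATOH8 knockdown cells all 4 LTBP genes, TGFB1 and TGFBI were higher and TGFB2 and INHBA were lower. Of the 9 genes with enough counts to test, 6 rose, 2 fell and TGFB3 did not pass the test, while INHBB was too low to be tested. The test was edgeR's quasi-likelihood F test with p-values adjusted over all 16884 genes tested and a threshold of 0.05. In the same test 51.1% of all genes were called, 25.2% as higher and 25.9% as lower, so a call alone sets none of these genes apart. The groups did not overlap for the same 8 genes that were called, against 45.6% of all genes tested. The ATOH8 knockdown libraries lay wholly above the control libraries for 6 genes, against 22.4% of all genes, and wholly below them for 2, against 23.2%. The median log2 change was 0.31 over the 9 genes and -0.00072 over all genes tested. All fold changes are ATOH8 knockdown over control, and 95% intervals of fold changes come from the edgeR fit.

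**Figure D1:**
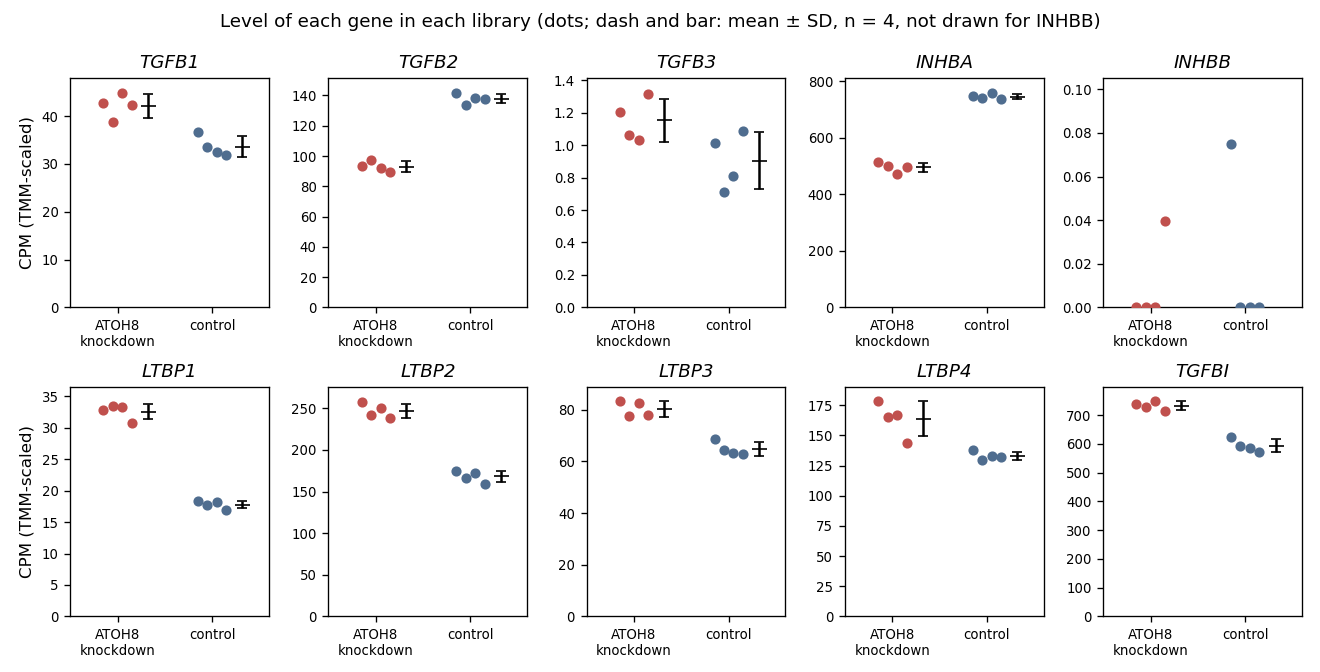
CPM (vertical axes, from 0) of the 10 genes in the 4 ATOH8 knockdown libraries (left, red) and the 4 control libraries (right, blue), 1 dot per library, with mean ± SD except for INHBB. TGFB2 and INHBA lie lower in all ATOH8 knockdown libraries, TGFB1, TGFBI and the 4 LTBP genes lie higher, and TGFB3 overlaps.

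Among the TGF-beta ligands, TGFB2 and TGFB1 moved in opposite directions. TGFB2, the isoform with a wide role in organ development, had 93.1, 97.4, 92.1 and 89.2 CPM in ATOH8 knockdown libraries, against 141, 134, 138 and 137 CPM in control libraries. Every ATOH8 knockdown library lay below every control library, with a gap wider than the spread within either group. The mean was 92.9 ± 3.43 CPM in ATOH8 knockdown and 138 ± 3.07 CPM in control (SD, n = 4), a 0.675-fold level (95% interval 0.642 to 0.708; log2 -0.57, SE 0.034, edgeR adjusted p = 3.88e-14). TGFB1, the isoform most often tied to fibrosis, had 42.7, 38.8, 44.9 and 42.4 CPM in ATOH8 knockdown libraries, against 36.7, 33.6, 32.4 and 31.8 CPM in control libraries. Its groups stood close, with the lowest ATOH8 knockdown library just above the highest control library. The level was 1.25-fold (95% interval 1.17 to 1.35; log2 0.33, SE 0.051, edgeR adjusted p = 4.11e-06).

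TGFB3 was barely detected. It had 28, 27, 24 and 33 counts in ATOH8 knockdown libraries, against 27, 19, 17 and 28 counts in control libraries, and the groups overlapped. At 1.15 ± 0.131 CPM in ATOH8 knockdown and 0.905 ± 0.174 CPM in control (SD, n = 4), its fold of 1.27 had an interval of 0.919 to 1.75 and did not pass the test (edgeR adjusted p = 0.215). At this depth neither no difference nor a rise as large as that of TGFB1 lay outside the interval.

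Per kilobase of annotated exon, which allows levels of different genes to be compared, TGFB2 was the most abundant TGF-beta ligand transcript in both groups, by a smaller margin after knockdown. TGFB2 stood at 18.0 ± 0.666 CPM per kilobase in ATOH8 knockdown and 26.7 ± 0.597 in control, and TGFB1 at 13.0 ± 0.778 in ATOH8 knockdown and 10.4 ± 0.669 in control (SD, n = 4). The ratio of TGFB2 to TGFB1 on this scale was 1.37, 1.58, 1.29 and 1.32 in ATOH8 knockdown libraries, against 2.43, 2.50, 2.68 and 2.72 in control libraries. TGFB2 made up 57.6% ± 2.18 of the 3 ligands in ATOH8 knockdown and 71.7% ± 1.08 in control, TGFB1 41.6% ± 2.16 in ATOH8 knockdown and 27.8% ± 1.10 in control, and TGFB3 0.75% ± 0.095 in ATOH8 knockdown and 0.493% ± 0.091 in control (SD, n = 4). Their sum was 31.3 ± 0.55 CPM per kilobase in ATOH8 knockdown and 37.3 ± 1.13 in control, and the groups did not overlap. These ratios and sums combine the genes above and were not tested on their own.

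Of the activin chains, INHBA carried nearly all counts. INHBA, the beta A chain of activin A, had 514, 499, 471 and 497 CPM in ATOH8 knockdown libraries, against 748, 740, 758 and 737 CPM in control libraries. The control libraries lay within a narrow band, and every ATOH8 knockdown library was well below it. The level in ATOH8 knockdown was 0.664-fold (95% interval 0.636 to 0.694; log2 -0.59, SE 0.031, edgeR adjusted p = 1.66e-15). INHBB, the beta B chain, had 1 count in ATOH8 knockdown replicate 4, 2 counts in control replicate 1 and 0 counts in the other 6 libraries. A count of 0 allows up to 3 counts, which is 0.113 to 0.143 CPM in these libraries and covers counting error only. The changes of TGFB2 and INHBA were similar in size, with overlapping intervals, and ranked at the 4.89th and 4.48th percentile of the log2 changes of all genes tested.

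**Figure D2:**
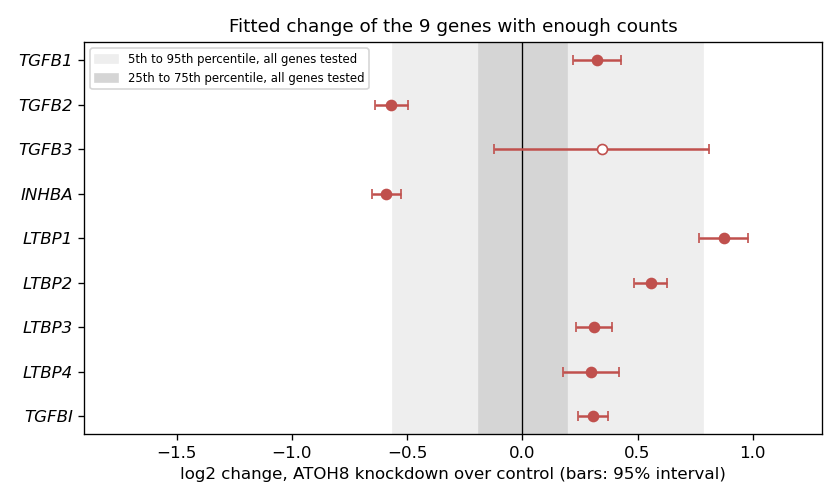
Fitted log2 change (horizontal axis, ATOH8 knockdown over control) of the 9 genes with enough counts, with 95% intervals, open for the gene that did not pass the test. TGFB2 (-0.57) and INHBA (-0.59) lie at the lower edge of the shaded 5th to 95th percentile of all genes tested (-0.56 to 0.78), and LTBP1 (0.87) lies above it.

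The upstream DNA of the 2 ligand genes that fell is shown because ATOH8 belongs to a family of proteins that bind the E-box, CANNTG. Each sequence is the 250 bases before the RefSeq start, read 5′ to 3′ on the gene's strand in GRCh38.p14, with any E-box in capitals. TGFB2 lies at chr1:218345086-218345335 on the plus strand and INHBA at chr7:41703091-41703340 on the minus strand.
TGFB2: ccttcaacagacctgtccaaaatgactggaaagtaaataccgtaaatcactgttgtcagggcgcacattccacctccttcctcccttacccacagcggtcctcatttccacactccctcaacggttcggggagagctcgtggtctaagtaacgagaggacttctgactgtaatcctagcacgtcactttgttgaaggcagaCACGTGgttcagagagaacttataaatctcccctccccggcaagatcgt
INHBA: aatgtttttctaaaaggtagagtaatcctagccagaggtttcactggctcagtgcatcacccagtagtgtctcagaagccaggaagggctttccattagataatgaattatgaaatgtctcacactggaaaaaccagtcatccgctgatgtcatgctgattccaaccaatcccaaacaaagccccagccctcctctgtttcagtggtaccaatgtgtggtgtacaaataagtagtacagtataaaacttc
The TGFB2 window held 1 E-box, the palindrome CACGTG at position -49 counted from the start, and the INHBA window held none. Counted on both strands, CANNTG occurred in 61.8% of 35116 windows of this length in the RefSeq table, and its special case CACGTG in 6.34%. Both windows held TATAAA, at -29 in TGFB2 and at -11 in INHBA, against 10.7% of all windows. The SMAD-binding letters CAGAC were found at -243 and -53 in TGFB2 and not in the INHBA window, against 38.0% of all windows. Neither window held TGACGTCA, the cyclic AMP response element, or TGANTCA, the AP-1 element, against 1.65% and 6.57% of all windows. These matches describe letters, and no binding was measured.

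The latent TGF-beta binding protein genes rose together, and LTBP1 rose most. LTBP1, which couples latent TGF-beta to the matrix, had 32.8, 33.5, 33.3 and 30.8 CPM in ATOH8 knockdown libraries, against 18.3, 17.8, 18.2 and 16.9 CPM in control libraries. The libraries of each group were tightly spaced and the groups lay far apart. Its fold was 1.83 (95% interval 1.70 to 1.97; log2 0.87, SE 0.051, edgeR adjusted p = 1.77e-14), and the size of its change ranked at the 93.9th percentile of all genes tested. LTBP2, the member that does not bind latent TGF-beta, had 257, 242, 251 and 238 CPM in ATOH8 knockdown libraries, against 174, 166, 172 and 160 CPM in control libraries. Its groups did not overlap either, and its fold was 1.47 (95% interval 1.40 to 1.54; log2 0.56, SE 0.034, edgeR adjusted p = 5.14e-14).

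LTBP3 and LTBP4 rose by smaller amounts. LTBP3, which has a role in bone and tooth development, had 83.3, 77.4, 82.6 and 78.0 CPM in ATOH8 knockdown libraries, against 68.6, 64.3, 63.2 and 62.8 CPM in control libraries (fold 1.24, 95% interval 1.17 to 1.31, edgeR adjusted p = 9.34e-08). LTBP4, which also helps to assemble elastic fibres, had 178, 166, 167 and 143 CPM in ATOH8 knockdown libraries, against 138, 130, 133 and 132 CPM in control libraries (fold 1.23, 95% interval 1.13 to 1.34, edgeR adjusted p = 0.00063). The groups did not overlap for either gene, and ATOH8 knockdown replicate 4 was the lowest of its group for LTBP4. The intervals of LTBP3 and LTBP4 overlapped each other and lay below those of LTBP2 and LTBP1, which did not overlap.

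The LTBP transcripts kept the same order of abundance while their sum was higher. Per kilobase of exon the 4 genes summed to 62.8, 59.2, 60.8 and 55.7 CPM in ATOH8 knockdown libraries, against 45.4, 43.0, 43.9 and 42.2 CPM in control libraries. LTBP2 was the largest part in both groups, with 45.6% ± 0.97 in ATOH8 knockdown and 42.4% ± 0.62 in control, followed by LTBP4 with 33.8% ± 1.42 in ATOH8 knockdown and 37.6% ± 0.572 in control (SD, n = 4). LTBP1 remained the smallest part, with 7.47% ± 0.254 in ATOH8 knockdown and 5.57% ± 0.09 in control. The summed level of LTBP1, LTBP3 and LTBP4, the members able to bind latent TGF-beta, relative to that of TGFB1 to TGFB3 was 1.10, 1.04, 1.04 and 0.961 in ATOH8 knockdown libraries, against 0.672, 0.676, 0.675 and 0.671 in control libraries. The control libraries hardly differed in this ratio and all ATOH8 knockdown libraries were above them. LTBP4, described above as binding TGF-beta1 weakly, made up 62.2% of this LTBP sum in ATOH8 knockdown and 65.3% in control. TGFB2 made up 57.6% of the ligand sum in ATOH8 knockdown and 71.7% in control. The ratio is therefore not a measure of binding capacity per ligand. It describes transcripts, depends on the annotated exon lengths and was not tested.

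**Figure D3:**
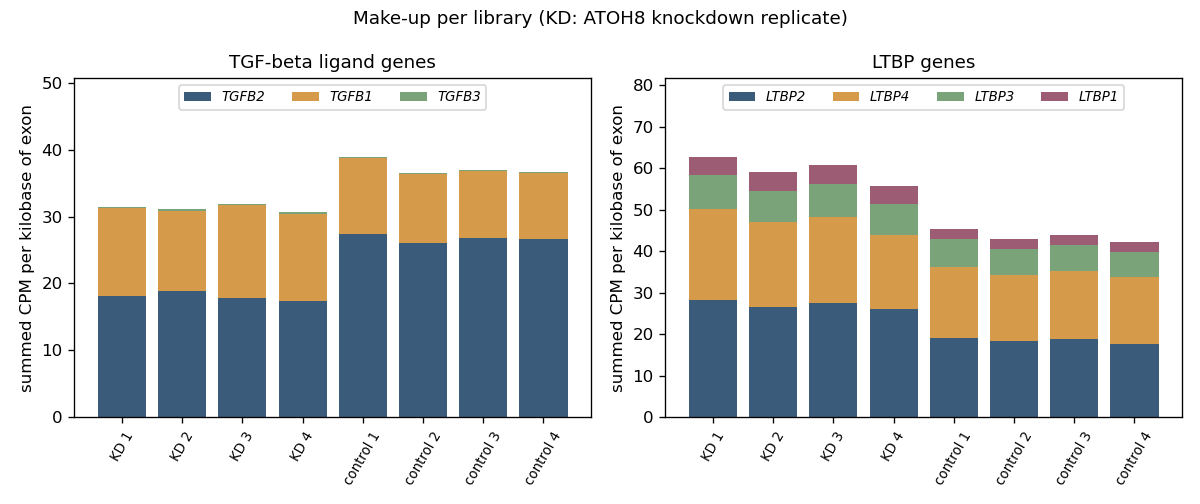
Summed CPM per kilobase of exon (vertical axes, from 0) in each ATOH8 knockdown library (KD 1 to KD 4, left) and each control library (right), split by gene, for the TGF-beta ligands (left panel) and the LTBPs (right panel). The ligand sum is lower in ATOH8 knockdown (31.3 on average against 37.3 in control) with a smaller TGFB2 part, while the LTBP sum is higher (59.6 on average against 43.6 in control).

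The upstream DNA of the 2 LTBP genes with the largest rises is shown for comparison with that of the ligands, in the same format and build. LTBP1 lies at chr2:32946703-32946952 on the plus strand, which is the first of its 3 RefSeq starts and not known to be the one in use in these cells, and LTBP2 at chr14:74612238-74612487 on the minus strand.
LTBP1: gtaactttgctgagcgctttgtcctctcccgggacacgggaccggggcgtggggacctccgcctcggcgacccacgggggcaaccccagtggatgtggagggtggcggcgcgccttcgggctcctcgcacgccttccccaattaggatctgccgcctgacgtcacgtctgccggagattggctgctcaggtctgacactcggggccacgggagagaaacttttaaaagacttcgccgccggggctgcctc
LTBP2: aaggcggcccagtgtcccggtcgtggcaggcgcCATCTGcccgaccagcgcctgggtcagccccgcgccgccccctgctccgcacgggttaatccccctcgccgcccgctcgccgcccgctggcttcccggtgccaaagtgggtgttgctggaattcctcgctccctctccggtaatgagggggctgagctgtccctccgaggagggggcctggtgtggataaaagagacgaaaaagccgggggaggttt
The LTBP1 window held no CANNTG, and its other 2 starts held 3 and 2. It held TGACGTCA at -94 and CAGAC on the opposite strand at -85 and -61. The LTBP2 window held 1 E-box, CATCTG at -217, and none of the other motifs. Across all 15 windows of the 10 genes, CANNTG was found upstream of TGFB2, TGFB3, LTBP1, LTBP2, LTBP3 and LTBP4, and not in the windows of TGFB1, INHBA, INHBB and TGFBI. Genes with and without these letters are found both among those that rose and among those that fell.

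TGFBI, which encodes a matrix protein that binds collagens and integrins, was the most abundant of the 10 transcripts per kilobase after knockdown. It had 739, 728, 750 and 716 CPM in ATOH8 knockdown libraries, against 625, 592, 585 and 572 CPM in control libraries. The groups did not overlap, with a fold of 1.24 (95% interval 1.18 to 1.29; log2 0.30, SE 0.032, edgeR adjusted p = 3.01e-09).

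The order of the levels per kilobase differed between the groups in its upper part. In ATOH8 knockdown it ran TGFBI (93.9 ± 1.87 CPM per kilobase), INHBA (59.7 ± 2.12), LTBP2 (27.2 ± 0.932), LTBP4 (20.2 ± 1.80), TGFB2, TGFB1, LTBP3 (7.80 ± 0.294), LTBP1 (4.45 ± 0.171), TGFB3 (0.235 ± 0.027) and INHBB. In control it ran INHBA (89.8 ± 1.11), TGFBI (76.0 ± 2.86), TGFB2, LTBP2 (18.5 ± 0.723), LTBP4 (16.4 ± 0.431), TGFB1, LTBP3 (6.29 ± 0.257), LTBP1 (2.43 ± 0.086), TGFB3 (0.184 ± 0.035) and INHBB (SD, n = 4). Neighbours in each order did not overlap between libraries, except LTBP4 and TGFB2 in ATOH8 knockdown, where LTBP4 ran from 17.7 to 22.0 and TGFB2 from 17.3 to 18.9 CPM per kilobase.

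Rows that share DNA with these genes limit some of the values, since the sources used here do not say whether reads were counted by strand. TGFB2-OT1, annotated within the end of TGFB2 on the same strand and covering 1371 of its 5151 exon bases, had 192, 225, 209 and 205 counts in ATOH8 knockdown libraries, against 312, 495, 384 and 337 counts in control libraries. It was lower as well (log2 -0.84, SE 0.172, edgeR adjusted p = 0.00449), and reads of the 2 rows may not be fully separable. With its counts added to TGFB2, an addition chosen after seeing the data, the log2 change of TGFB2 was -0.59. HNRNPUL1, on the opposite strand with 215 exon bases in common with TGFB1, rose by 0.13 on the log2 scale (edgeR adjusted p = 0.00103, SE 0.031), a smaller change than that of TGFB1. TGFB3-AS1, which shares 163 exon bases with TGFB3 on the opposite strand, had 1 count in all.

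For the 4 genes with the largest changes, the genes with the most similar profile over the 8 libraries were found among 8838 genes, by the root mean square (RMS) difference of log2 CPM after centring on the control mean. LTBP1 was closest to TLL2, a tolloid-like metalloprotease (RMS 0.055; 108 CPM in ATOH8 knockdown and 57.3 CPM in control), and to MAP3K7CL (RMS 0.062). INHBA was closest to PARP1, which encodes a DNA damage sensor (RMS 0.037; 144 CPM in ATOH8 knockdown and 218 CPM in control), and to the chromatin gene DEK (RMS 0.05). TGFB2 was also closest to PARP1 (RMS 0.036), then to the matrix gene MATN2 (RMS 0.041). LTBP2 was closest to PACS2 (RMS 0.025) and ELFN2 (RMS 0.033). These matches describe the 8 libraries and carry no test.

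The genes that store and release latent TGF-beta went in both directions. Of 21 tested of 26 listed, 13 rose (61.9%, against 25.2% of all genes), 5 fell (23.8%, against 25.9%) and 3 did not pass. Their median log2 change was 0.16. This list and the pathway lists below were chosen with earlier results of these data known, so their shares are not a test. LRRC32 (GARP), which tethers latent TGF-beta to the cell surface in place of an LTBP, rose to 9.53 ± 0.748 CPM in ATOH8 knockdown, against 4.29 ± 0.308 CPM in control (fold 2.23, edgeR adjusted p = 2.73e-11). TGM2, a transglutaminase that crosslinks LTBP1 into matrix (log2 0.54, SE 0.033), PLAT, which makes plasmin from plasminogen (log2 0.58, SE 0.045), and the gelatinase gene MMP2 (log2 0.35, SE 0.034) also rose. ITGB6, the beta chain of an integrin that activates latent TGF-beta, had 6.19, 7.70, 6.16 and 5.49 CPM in ATOH8 knockdown libraries, against 18.7, 19.6, 20.1 and 19.6 CPM in control libraries (fold 0.328, edgeR adjusted p = 4.18e-16). The activator THBS1 fell to 3029 ± 108 CPM in ATOH8 knockdown, against 4097 ± 178 CPM in control (log2 -0.44, SE 0.035), as did the integrin chain genes ITGAV (log2 -0.20) and ITGB1 (log2 -0.14). The other 3 integrin chain genes tested, named after their values were seen, went both ways: ITGB8 (log2 -0.31) fell, and ITGB3 (log2 0.24) and ITGB5 (log2 0.22) rose. The remaining rises, also named after their values were seen, were those of the fibrillin genes FBN1 (log2 0.13) and FBN2 (log2 0.32), the fibronectin gene FN1 (log2 0.16), the propeptide convertase gene FURIN (log2 0.24), BMP1, which cleaves LTBP1 (log2 0.32), and the protease genes MMP14 (log2 0.12) and PLAU (log2 0.10).

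Ligand traps were also mixed, with 4 rises (44.4%, against 25.2% of all genes), 3 falls (33.3%, against 25.9%) and 2 not passing of 9 tested of 14 listed and a median log2 change of -0.17. Their mean was 0.14, of opposite sign, through BGN. The small proteoglycan genes BGN (2.95 ± 0.511 CPM in ATOH8 knockdown and 0.783 ± 0.247 CPM in control) and DCN (log2 0.39, SE 0.084), whose products bind TGF-beta, rose, as did VASN (log2 0.33, SE 0.063) and CD109 (log2 0.15, SE 0.033). FSTL3, an activin antagonist, fell to 122 ± 7.89 CPM in ATOH8 knockdown, against 143 ± 2.99 CPM in control. BAMBI, a pseudoreceptor (log2 -0.41, SE 0.087), and the protease gene HTRA1 (log2 -0.41, SE 0.102) fell too. The groups overlapped for DCN and HTRA1.

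Among the 19 tested receptor and SMAD genes, 7 rose (36.8%, against 25.2% of all genes tested). Falls numbered 3 (15.8%, against 25.9%), and 9 did not pass. The share called in either direction, 52.6%, was near the 51.1% of all genes tested, so the number called does not set the list apart. The median of their log2 changes was 0.08. TGFBR1, the type I receptor, had 52.5, 58.9, 57.1 and 51.3 CPM in ATOH8 knockdown libraries, against 247, 254, 259 and 251 CPM in control libraries, a larger log2 difference than that of any of the 10 ligand, LTBP and TGFBI genes. The type II receptor gene TGFBR2 had 221, 220, 226 and 242 CPM in ATOH8 knockdown libraries, against 163, 151, 154 and 159 CPM in control libraries. The co-receptor gene TGFBR3, whose product presents TGF-beta2 to the receptors, rose 1.80-fold (log2 0.85, SE 0.068), and the corepressor gene SKI (log2 0.29, SE 0.038) and the SMAD anchor gene ZFYVE9 (log2 0.27, SE 0.047) rose. TGIF1 (log2 -0.14, SE 0.033) and ACVR1 (log2 -0.15, SE 0.045) fell slightly.

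**Figure D4:**
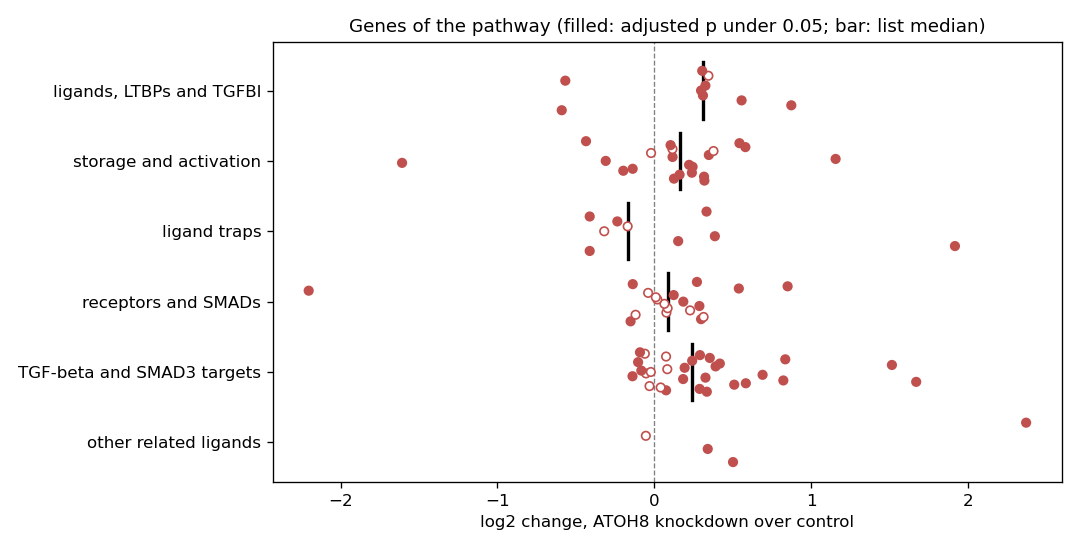
Log2 change (horizontal axis, ATOH8 knockdown over control) of each tested gene by list, filled where the adjusted p was under 0.05, with the list median as a black bar and the median of all genes tested as a dashed line. Medians run from -0.17 for ligand traps to 0.31 for the ligand, LTBP and TGFBI genes. None is drawn for the other related ligands, where NODAL, the highest point, passed the filter through the ATOH8 knockdown libraries alone, and the lowest point is TGFBR1 (-2.20).

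Listed TGF-beta and SMAD3 target genes included more rises than falls: of 29 tested of 32 listed, 18 rose (62.1%, against 25.2% of all genes tested), 4 fell (13.8%, against 25.9%) and 7 did not pass. The list median was 0.24 on the log2 scale. Since the list was chosen with earlier results of these data known, its excess of rises is not independent evidence. COL1A1, a chain of type I collagen, had 420, 383, 374 and 345 CPM in ATOH8 knockdown libraries, against 120, 119, 122 and 117 CPM in control libraries (fold 3.18, edgeR adjusted p = 2.63e-13). CDKN2B, a cell cycle inhibitor (log2 0.51, SE 0.036), the cytokine gene IL11 (log2 0.69, SE 0.049) and the feedback gene PMEPA1 (log2 0.39, SE 0.031) rose. Named after their values were seen, the inhibitory SMAD gene SMAD7 (log2 0.24) rose, whereas CCN2 had a log2 change of 0.04 and an edgeR adjusted p of 0.324. The falls of HMGA2, SKIL, LOX and VCAN were small (log2 -0.14 to -0.08), their groups overlapped, and each lost its call in several fits without 1 library. The number of targets that fell was 0 without ATOH8 knockdown replicate 3, 1 without control replicate 3 or ATOH8 knockdown replicate 1, and 2 without control replicate 1, control replicate 4 or ATOH8 knockdown replicate 2.

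Few of the other activin-class and related ligands were expressed, and 4 of 12 listed could be tested. NODAL, a ligand of early development, had 29, 30, 32 and 37 counts in ATOH8 knockdown libraries, against 6, 6, 9 and 4 counts in control libraries. The groups did not overlap, but NODAL passed the filter on low counts, with its minimum of 10, through the ATOH8 knockdown libraries alone, so its values (1.32 ± 0.132 CPM in ATOH8 knockdown and 0.258 ± 0.118 CPM in control; SD, n = 4) are given without a test. GDF11 (log2 0.34, SE 0.060) and AMH (log2 0.50, SE 0.155) rose, and GDF15, the abundant one and named after its values were seen, had 476 CPM in ATOH8 knockdown and 494 CPM in control and did not pass the test (edgeR adjusted p = 0.197). INHA, which pairs with INHBA to make inhibin, averaged 0.053 CPM in ATOH8 knockdown and 0.103 CPM in control and was not tested.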

How the data were processed

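RNA came from polyadenylated, directional libraries, per the labels' protocols. The deposited table holds whole-number counts per gene. FastQC, STAR, featureCounts, DESeq2 and hg19 are named in the submitters' processing notes, without versions, annotation or strand setting (not given in the sources used here). Of 60609 rows, 1 with a missing cell and 44 empty Y copies of pseudoautosomal genes were left out. Symbols came from a gene name table (60295) and GENCODE release 29 (250), which also gave exon lengths. That release and the RefSeq promoters describe GRCh38, and their coordinates were not joined to the counts.

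Genes were filtered with filterByExpr, scaled by TMM and tested with edgeR 4.0.16 (quasi-likelihood, robust, Benjamini-Hochberg). CPM were computed from the counts. In simulated counts for 16663 genes, the calls took in 100 of 100 genes made 2-fold different and 92 of 100 made 1.3-fold different. Of all simulated calls, 5.88% were of unchanged genes. The changed genes were drawn only from those with higher counts, so these rates do not extend to genes as low as TGFB3. Far fewer genes were changed in the simulation than were called in the data. Within groups, chi-square per gene between libraries ran from 1.91 to 4.20, so none was a duplicate. Separate cultures are not named, so the spread behind each p-value may be partly technical.

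The 10 genes and all lists were chosen with earlier results of these data known. Named in each pathway list were up to 4 rises and 4 falls with the smallest adjusted p. Values of a few listed genes are not reported here. Alternatives were DESeq2 size factors, DESeq2 1.42.0 (Wald), no filter, 1 CPM in 4 libraries, a block by replicate number and leaving out each library.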

Additional observations from a re-analysis of the deposited data

Results flagged for a closer look

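Dixon's criterion was applied to 100 groups of 4 libraries (the 50 genes named by rule that passed the filter, in each group). In 4 of them 1 library lay far from the other 3, and chance flags about 1 in 20. THBS1 had 3190 CPM in ATOH8 knockdown replicate 1 and 2956 to 2988 CPM in the other ATOH8 knockdown libraries. PMEPA1 had 220 CPM in ATOH8 knockdown replicate 3 and 211 to 213 CPM in the others. PLAT had 48.8 CPM in control replicate 1 and 42.6 to 42.9 CPM in the other control libraries. IL11 had 37.5 CPM in control replicate 3 and 40.0 to 40.2 CPM in the others. No library stood apart in this way for the ligand, LTBP and TGFBI genes with enough counts.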

How the results depend on the processing

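Over the 13 alternative fits, 6 of the 10 ligand, LTBP and TGFBI genes rose and 2 fell in every fit. Their log2 changes ran from 0.85 to 0.90 for LTBP1, 0.53 to 0.57 for LTBP2, 0.29 to 0.34 for LTBP3, 0.25 to 0.36 for LTBP4, 0.29 to 0.37 for TGFB1, 0.29 to 0.33 for TGFBI, -0.59 to -0.55 for TGFB2 and -0.61 to -0.57 for INHBA. TGFB3 passed in none (adjusted p 0.154 to 0.453). INHBB was fitted only without the filter (edgeR adjusted p = 0.764). The counts over all genes were 3850 to 4545 higher and 3905 to 4466 lower, while the number of genes tested ran from 14843 to 33952. The genes called higher were 4545 of 33952 without the filter and 4104 of 14843 with at least 1 CPM in 4 libraries. Those called lower were 4434 and 4176 in the same fits, so the share called differed between fits. The number of TGF-beta and SMAD3 targets that fell was 4 in the fit reported, 2 with at least 1 CPM in 4 libraries and 0 to 3 when 1 library was left out; the cause was not tested. Of 638 values of 49 single genes under these fits and the added TGFB2 fit, 23 lost their call, all of HMGA2, SKIL, LOX or VCAN, and none changed direction. The 49 include NODAL, which passed the filter through the ATOH8 knockdown libraries alone, so its unchanged calls carry no weight. Replicate numbers are shared between the groups, but deviations of same-numbered libraries correlated at 0.142, 0.188, -0.019 and 0.081, and were not over 0.1 in every pair, so the numbers were not taken to pair the libraries. The control with the same number was the best match for ATOH8 knockdown replicates 1, 2 and 4 and not for 3, a hint from the data and not from the design, and a shared batch cannot be told from these values. With the replicate block the targets that fell numbered 3, HMGA2 lost its call (log2 -0.14, edgeR adjusted p = 0.0848), and no call of the ligand, LTBP or TGFBI genes changed. TGFB3 had 17 to 33 counts in a library and INHBB 0 to 2, which limits the precision of their values.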
